A study of Mus musculus with 9 samples.

Results

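The genes described here are 38 genes of fatty acid and cholesterol synthesis, taken as a list of gene symbols from these pathways. The list was chosen with earlier results of these data known. Shares and medians set beside those of all genes are therefore descriptions and not tests. All 38 were found among the 22048 genes of the count table. They comprise 14 enzymes of cholesterol synthesis, 12 genes of fatty acid synthesis and desaturation, 5 genes that control the SREBP transcription factors, 1 cholesterol carrier and 6 genes of triglyceride and lipid droplet formation. Their RNA was measured in isolated pancreatic islets of wild-type ICR mice, an outbred strain, cultured for 3 days with glucose at 11.8 mM, 20 mM or 35 mM. The 11.8 mM libraries are the control, the other concentrations model a high and a very high blood glucose, and every group has 3 libraries. The treatment protocol in the labels gives the highest concentration as 25 mM, whereas the titles, the treatment labels and the design text give 35 mM, which is used here. All groups share the same serum-supplemented culture medium. The labels name 9 mice but do not tie a library to a mouse, so the spread behind each p-value is that between these libraries and may be technical.

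Cholesterol is built from acetyl-CoA through mevalonate, isoprenoids, squalene and lanosterol. Fatty acids are built from acetyl-CoA through malonyl-CoA and are then elongated, desaturated and stored as triglyceride in lipid droplets. Both routes are under the transcription factors SREBP1 and SREBP2, which the escort protein SCAP carries to the Golgi for cleavage and which INSIG proteins hold back in the endoplasmic reticulum when sterols are plentiful. In the beta cell, which secretes insulin, glucose supplies the citrate from which cytosolic acetyl-CoA is made, and the lipid load of islets at high glucose has long been studied as part of glucolipotoxicity.

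Promoter sequences are shown for 3 members on which the results turn, 1 each from lipid droplet formation, cholesterol synthesis and fatty acid synthesis, because SREBP and its partner NF-Y bind gene promoters. They are from RefSeq on GRCm38.p6 and run from 250 bases before the transcription start to 50 bases after it, and capitals mark motif matches. The window of Bscl2 is chr19:8837217-8837516 on the plus strand, at the first of its listed starts. The window of Hmgcs1 is chr13:119690101-119690400 on the plus strand. The window of Fasn is chr11:120824498-120824797 on the minus strand.
Bscl2: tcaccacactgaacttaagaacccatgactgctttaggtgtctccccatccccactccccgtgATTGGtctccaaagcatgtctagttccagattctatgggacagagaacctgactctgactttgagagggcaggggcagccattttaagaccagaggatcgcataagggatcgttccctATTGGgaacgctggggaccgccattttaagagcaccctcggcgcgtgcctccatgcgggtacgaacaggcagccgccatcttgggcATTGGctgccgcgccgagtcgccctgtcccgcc
Hmgcs1: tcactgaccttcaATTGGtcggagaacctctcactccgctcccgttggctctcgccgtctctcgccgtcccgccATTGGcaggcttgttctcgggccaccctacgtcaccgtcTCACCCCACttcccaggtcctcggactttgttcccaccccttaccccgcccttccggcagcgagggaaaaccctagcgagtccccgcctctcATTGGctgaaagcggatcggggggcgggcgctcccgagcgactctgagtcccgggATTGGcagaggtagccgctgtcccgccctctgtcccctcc
Fasn: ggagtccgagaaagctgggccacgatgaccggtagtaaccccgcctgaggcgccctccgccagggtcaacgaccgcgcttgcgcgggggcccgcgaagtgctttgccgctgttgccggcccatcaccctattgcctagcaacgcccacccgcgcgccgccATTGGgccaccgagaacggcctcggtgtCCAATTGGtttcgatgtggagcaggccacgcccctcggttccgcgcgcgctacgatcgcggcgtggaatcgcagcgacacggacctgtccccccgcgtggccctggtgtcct

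The motifs searched, on both strands, were TCACNCCAC for the sterol regulatory element, CACGTG for the E-box and CCAAT for the NF-Y box. Positions are those of the first base of a match on the printed strand, counted from the start site with no position 0. In the Hmgcs1 window the sterol regulatory element lay at -137, with NF-Y boxes on the opposite strand, read as ATTGG, at -237, -176, -45 and 11. The Bscl2 window held ATTGG at -187, -69 and 18, whereas the windows at its other listed starts held no match to any motif searched. The Fasn window held NF-Y boxes at -90, -62 and -59, of which the last pair overlap. Promoters were matched for 29 of the 38 members, in 39 windows. An NF-Y box was found in 64.1% of the members' windows and in 37.4% of all 32851 promoter windows. The shares for the E-box were 20.5% of the members' windows and 7.15% of all windows, and the member genes that held it were Dhcr7, Elovl5, Hsd17b7, Insig1, Plin2, Sc5d and Scap. Overlapping windows were counted separately, for members and for all promoters alike, and those of Scap overlap and hold the same E-box. The sterol regulatory element was found in 2.56% of the members' windows, that of Hmgcs1 alone, and in 1.24% of all windows. These matches describe letters in the windows and are not evidence of binding.

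The libraries held 3228648 to 4559561 gene counts each, and the members together took 3324 to 4371 of these, or 0.0911% to 0.121%. Summed marker levels of beta cells were 449080 to 652620 CPM per library (CPM, a gene's share of a library's gene counts after TMM scaling), with insulin transcripts leading, as in islet tissue. The markers of exocrine acinar cells summed to 3940 to 13943 CPM at 11.8 mM, 7594 to 13369 CPM at 20 mM and 7167 to 11085 CPM at 35 mM, so these cells or their RNA were present in every library. Endothelial markers, though low throughout, summed to 12.0 to 16.2 CPM at 11.8 mM, 7.70 to 11.1 CPM at 20 mM and 9.37 to 11.8 CPM at 35 mM. Fibroblast and stellate markers overlapped, with 385 to 632 CPM at 11.8 mM, 289 to 435 CPM at 20 mM and 264 to 480 CPM at 35 mM. Immune markers did so too, with 169 to 203 CPM at 11.8 mM, 141 to 184 CPM at 20 mM and 122 to 206 CPM at 35 mM. Gene by gene at 35 mM against 11.8 mM, 8 of 10 tested fibroblast and stellate markers were on the negative side, with a median log2 fold change of -0.42, as were 9 of 11 immune markers, with a median of -0.29, and none passed the test. Ductal markers had a median of 0.28, with 3 of 5 positive and none passing, and of the 5 alpha cell markers 4 were negative and 1 rose. Of the 8 beta cell markers 5 were positive and 1 rose, with a range of -0.42 to 0.63. Of the 4 delta and PP cell markers 3 were negative and none passed. Their part in the members' values was not tested. Adipocyte markers, which bear on lipid genes, were close to absent: Plin1, Adipoq, Cfd and Lep had 0 counts in all 9 libraries, and the whole list of 8 summed to at most 4.1 CPM. In bulk libraries such as these, fewer cells of a type and less RNA per cell cannot be told apart. A gene was tested if it passed the expression filter, which left 9739 genes and 35 of the 38 members. The tested members averaged 2.98 to 249 CPM over all libraries. The other 3 were near the limit of detection: Acacb, the mitochondrial acetyl-CoA carboxylase, had 2 counts in all libraries together, Fads2, the delta-6 desaturase, had 5 and Gpam, which starts triglyceride synthesis, had 5.

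At 35 mM against 11.8 mM, 1 of the 35 tested members rose, none fell and 34 did not pass the test, a quasi-likelihood test by edgeR with the Benjamini-Hochberg adjusted p held to 0.05. Over all 9739 genes the same rule called 0.863%, with 0.626% higher. The member that rose was Bscl2, which DESeq2 also called (adjusted p = 0.0146, with 16 members given an adjusted p). It encodes seipin, the endoplasmic reticulum protein that shapes budding lipid droplets. At an unadjusted p under 0.05 there were 7 of 35 members, or 20%, against 10.5% of all genes. Bscl2, Sqle, Lss, Scd2, Fasn and Hmgcs1 were higher, a side that held 5.63% of all genes, and Plin2 was lower, on the side of 4.89%. The median log2 fold change of the tested members was 0.16, against -0.0027 over all genes. Leaving out 1 library moved it to between 0.083, without 35 mM replicate 2, and 0.23, without 11.8 mM replicate 1. In direction, 65.7% of members but 49.6% of all genes were on the positive side. As the list was chosen with results of these data known, these contrasts with all genes describe it and test nothing. For 6 members, or 17.1%, no 35 mM library fell within the range of the 11.8 mM libraries, against 14.9% of all genes. The higher ones were Hmgcs1, Idi1, Sqle, Cyp51 and Bscl2, against 8.22% of all genes, and the lower one was Insig1, against 6.69%.

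**Figure D1:**
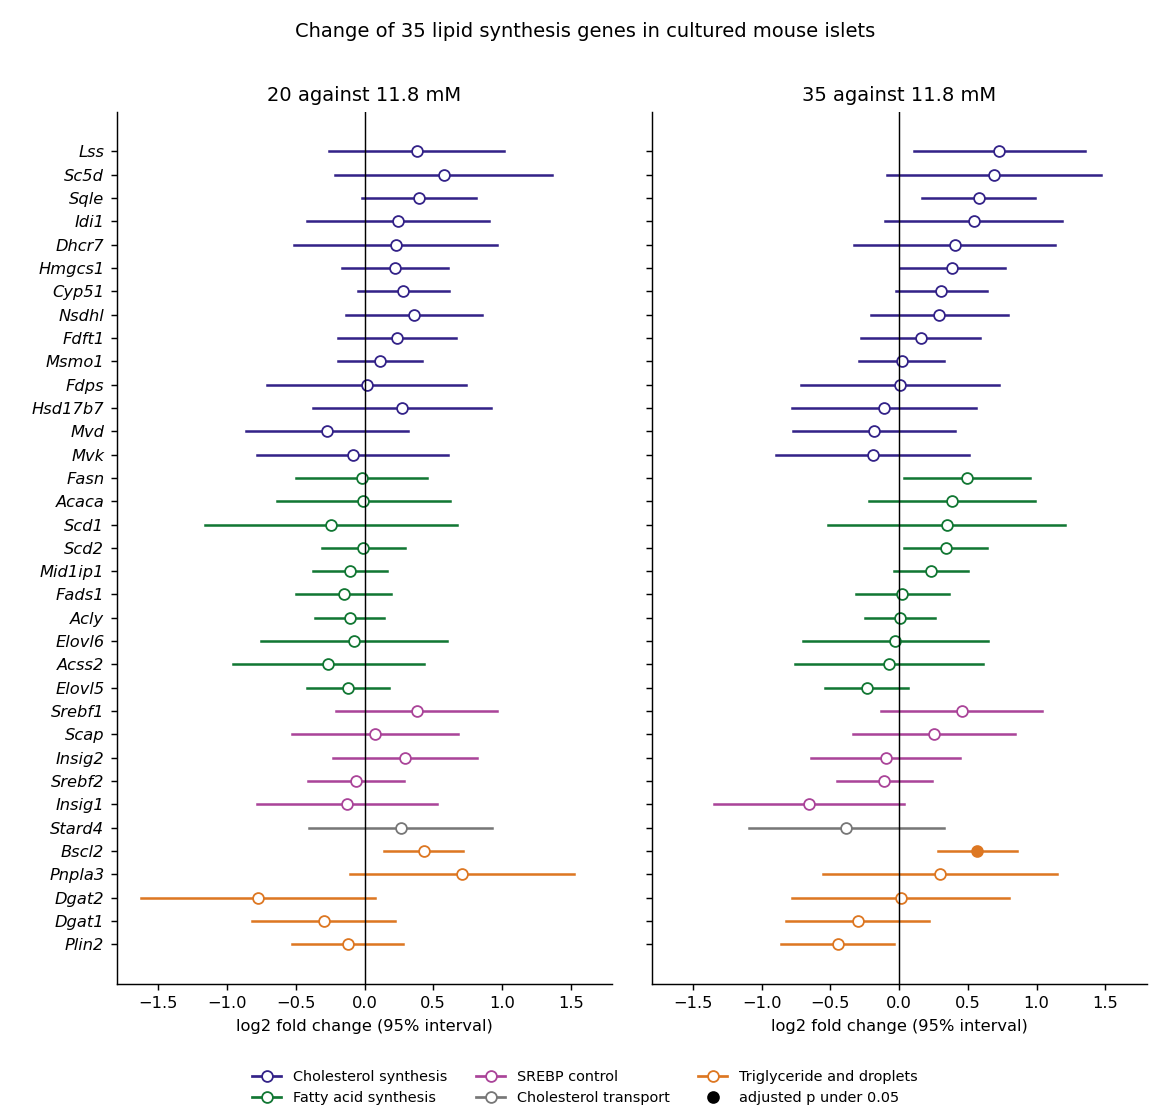
Log2 fold changes of the 35 tested members by role group, with 95% confidence intervals computed from the edgeR test statistics (x axis, log2 scale), for 20 mM and 35 mM against 11.8 mM. The interval of Bscl2 at 35 mM, 0.28 to 0.86, belongs to the member that passed the test, and 28 of the 35 intervals at 35 mM include 0.

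Bscl2 (ENSMUSG00000071657, chr19:8837467-8848683, plus strand, GRCm38) had 53.8, 50.7 and 44.9 CPM at 11.8 mM, 71.4, 68.2 and 62.0 CPM at 20 mM and 80.0, 75.2 and 66.8 CPM at 35 mM. In these TMM-scaled values, every library at 20 mM and at 35 mM was above every library at 11.8 mM. The 20 mM and 35 mM libraries overlapped. Without the scaling, the 20 mM and 11.8 mM libraries overlapped too. There 11.8 mM replicate 1, with 202 of 3303046 gene counts, had a larger share than 20 mM replicate 3, with 220 of 3648062. The mean was 74.0 ± 6.69 CPM at 35 mM and 49.8 ± 4.55 CPM at 11.8 mM (SD, n = 3 each), a 1.48-fold difference. On the log2 scale this was 0.57 ± 0.14 (SE), with an edgeR adjusted p of 0.0417. At 20 mM the mean was 67.2 ± 4.78 CPM (SD, n = 3). Against 11.8 mM this was 0.43 ± 0.14 (SE) on the log2 scale, which did not pass the test (edgeR adjusted p = 0.325). The call at 35 mM was close to the threshold: it was lost in 5 of the 9 fits that left out 1 library. The edgeR adjusted p was 0.251 without replicate 1 and 0.161 without replicate 2 of the 35 mM group, and 0.0609 without replicate 2 of the 20 mM group. Without replicate 2 of the 11.8 mM group it was 0.0849, and without replicate 3 it was 0.211. The log2 fold change stayed between 0.50 and 0.64 in all 17 alternative settings tried.

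Each library was the sum of 3 sub-libraries. In 2 of the 27 sub-libraries the share of 1 insulin gene was low beside their own library, while the other insulin gene was higher. In 35 mM replicate 1 the third sub-library had 10.6% of its counts in Ins2, against 29.2% and 28.9% in the other sub-libraries of that library. Its Ins1 share was 30.8%, against 22.5% and 25.3%. Bscl2 stood at 121 CPM there, against 68.0 and 72.0 CPM in the others. In 11.8 mM replicate 1 the third had 11.8% of its counts in Ins1, against 26.1% and 26.5% in the others. Its Ins2 share was 31.9%, against 25.4% and 25.2%. Bscl2 stood at 76.1 CPM, against 54.7 and 54.9 CPM. Without these 2, Bscl2 spanned 35.7 to 54.9 CPM over 8 sub-libraries at 11.8 mM, 51.3 to 77.5 CPM over 9 at 20 mM and 57.8 to 80.3 CPM over 8 at 35 mM. With all 27 sub-libraries the 11.8 mM and 35 mM ranges overlapped, since the 11.8 mM sub-library left out was the highest of its group. Sub-libraries are parts of the 3 libraries at each concentration and not replicates, and their CPM are without TMM scaling. In the fit without these 2 sub-libraries the log2 fold change was 0.54, with an edgeR adjusted p of 0.0758. The exons of Bscl2 overlap those of Gng3 on the opposite strand, which had 12 counts in all libraries together. They also overlap AC129217.1, a protein-coding annotation on the same strand that was not among the counted genes, so reads of this pair may not be told apart.

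**Figure D2:**
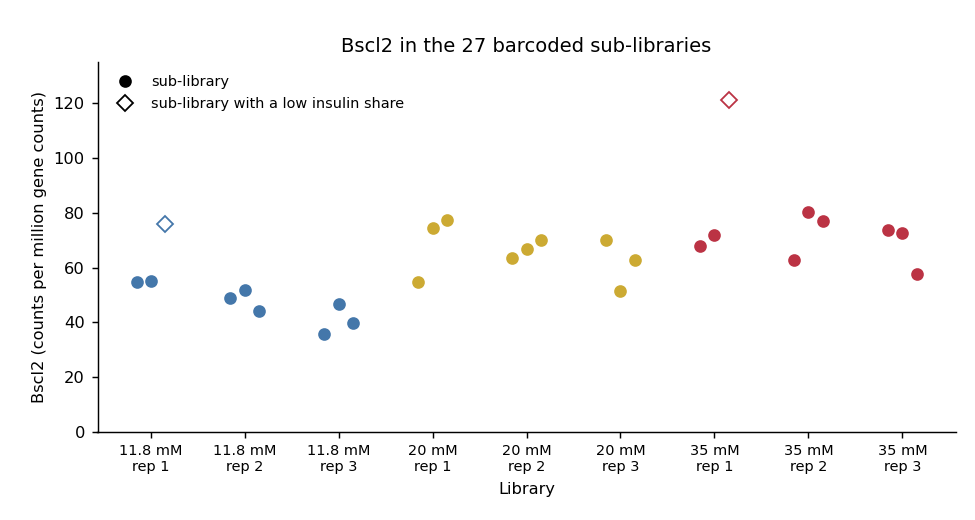
Bscl2 in CPM without TMM scaling (y axis) in each of the 27 sub-libraries, by glucose concentration and library (x axis). Open diamonds, labelled as a low insulin share, mark the sub-libraries low in Ins1 or Ins2 alone. The sub-library of 35 mM replicate 1 with a low Ins2 share stands at 121 CPM, while the other 8 at 35 mM lie between 57.8 and 80.3 CPM.

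The 14 enzymes of cholesterol synthesis were all tested and none passed at 35 mM against 11.8 mM. Of these, 11 had a positive log2 fold change, with a median of 0.30 and a range of -0.19 to 0.73. Their summed level was 269, 271 and 257 CPM at 35 mM, against 216, 229 and 244 CPM at 11.8 mM. At 20 mM it was 272, 246 and 274 CPM, so that the libraries at either raised concentration lay above those at 11.8 mM.

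Hmgcs1, the cytosolic synthase that makes HMG-CoA ahead of the rate-limiting reductase, had 19.2, 16.4 and 20.4 CPM at 11.8 mM, 17.2, 24.0 and 23.7 CPM at 20 mM and 24.1, 25.0 and 23.9 CPM at 35 mM. The 35 mM libraries lay close together and above all 11.8 mM libraries, and the 20 mM libraries overlapped both. The log2 fold change at 35 mM was 0.39 ± 0.19 (SE), with an edgeR adjusted p of 0.469. Among the enzymes that follow, Idi1, the isopentenyl diphosphate isomerase, had a log2 fold change of 0.54 ± 0.32 (SE) at 35 mM against 11.8 mM. The mevalonate kinase Mvk and the decarboxylase Mvd were at -0.19 and -0.18, and Fdps, which makes farnesyl diphosphate, was at 0.01. The end of Fdps overlaps Gm43738, a protein-coding annotation on the same strand with 0 counts, so reads of this pair may not be told apart. The early steps of the pathway thus had values on both sides of 0.

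Sqle, squalene epoxidase, a rate-limiting step of the sterol branch, had 14.1, 14.4 and 20.1 CPM at 11.8 mM, 23.4, 17.7 and 22.8 CPM at 20 mM and 27.9, 21.5 and 22.7 CPM at 35 mM. All 35 mM libraries were above all 11.8 mM libraries. Its log2 fold change was 0.58 ± 0.20 (SE), with a 95% interval of 0.17 to 0.99 and an edgeR adjusted p of 0.243. This was about the size of the Bscl2 difference, with a larger error.

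Lss, which folds squalene epoxide into lanosterol, had 13.6, 3.94 and 9.32 CPM at 11.8 mM, 12.3, 10.6 and 11.6 CPM at 20 mM and 18.8, 13.6 and 11.4 CPM at 35 mM. The groups overlapped, and the 11.8 mM libraries were the most spread. The log2 fold change of Lss at 35 mM was 0.73 ± 0.30 (SE), with an edgeR adjusted p of 0.377. With 11.8 mM replicate 1 left out it was 1.18 with an edgeR adjusted p of 0.0495, so that for this gene 1 control library decided the call. With 11.8 mM replicate 2, the library at 3.94 CPM, left out instead, it was 0.35 with an edgeR adjusted p of 0.716, and without 35 mM replicate 1 it was 0.50 with an edgeR adjusted p of 0.77.

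Of the enzymes that turn lanosterol into cholesterol, Cyp51, the lanosterol demethylase, averaged 42.3 ± 1.4 CPM at 35 mM and 34.2 ± 5.01 CPM at 11.8 mM (SD, n = 3 each), with no overlap. Its log2 fold change was 0.31 ± 0.16 (SE), with an edgeR adjusted p of 0.533. The sterol desaturase Sc5d was at 0.69 ± 0.38 (SE), the reductase Dhcr7 at 0.40 ± 0.36 (SE) and Msmo1, the C4 methyl sterol oxidase, at 0.02 ± 0.15 (SE). The last exons of Cyp51 and of Fdft1, the squalene synthase, overlap Akap9 and Ctsb on the opposite strand, and the counting strand is not given in the sources used here, so reads of these pairs may not be told apart. The overlapping genes had log2 fold changes of -0.25 for Akap9 and -0.05 for Ctsb at 35 mM against 11.8 mM.

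**Figure D3:**
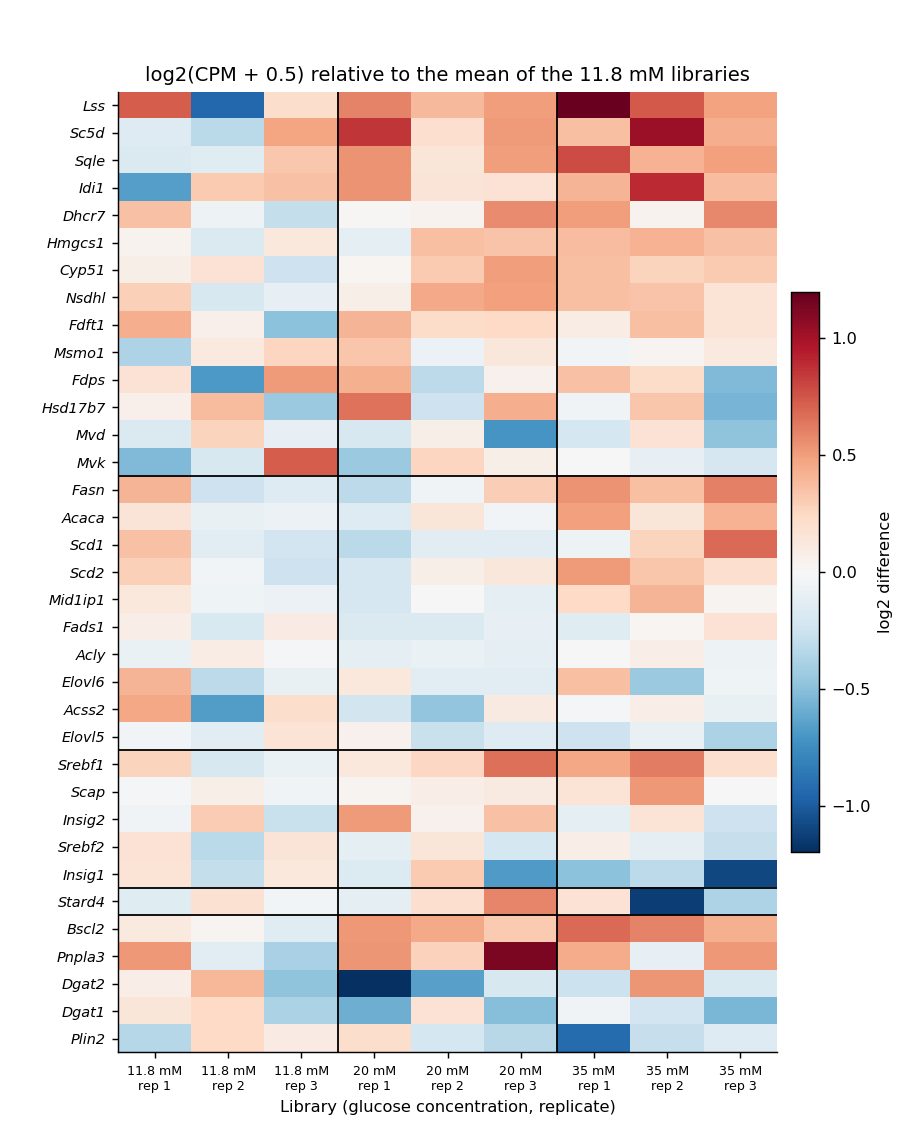
Log2(CPM + 0.5) of the 35 tested members in every library (columns, ordered by glucose) relative to their mean in the 11.8 mM libraries, with role groups separated by lines. Of the 14 cholesterol synthesis genes at the top, 11 had a positive log2 fold change at 35 mM, and the 11.8 mM libraries also differed among themselves, as for Lss with 3.94 to 13.6 CPM.

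Of the 12 genes of fatty acid synthesis, 10 were tested and none passed at 35 mM against 11.8 mM. There 7 of the 10 had a positive log2 fold change, with a median of 0.13 and a range of -0.24 to 0.49. At 20 mM against 11.8 mM all 10 were on the negative side, with a median of -0.10 and a range of -0.26 to -0.01, and none passed. Their summed level was 638, 604 and 596 CPM at 11.8 mM, 556, 583 and 580 CPM at 20 mM and 670, 698 and 614 CPM at 35 mM. The 20 mM libraries lay below those of both other concentrations, and the 35 mM libraries overlapped those at 11.8 mM. Acly and Mid1ip1 made up 64.8% to 70.0% of this sum. Without them the sum was 224, 181 and 193 CPM at 11.8 mM, 182, 185 and 199 CPM at 20 mM and 228, 218 and 209 CPM at 35 mM, so that the 20 mM libraries overlapped those at 11.8 mM.

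Acly, which splits citrate into the cytosolic acetyl-CoA that feeds both routes, averaged 256 ± 13.2 CPM at 35 mM and 255 ± 14.6 CPM at 11.8 mM (SD, n = 3 each). The 95% interval of its log2 fold change, -0.24 to 0.26, was among the narrower ones, so that a doubling lies outside it. Acaca, the acetyl-CoA carboxylase that makes malonyl-CoA in the cytosol, was at 0.38 ± 0.30 (SE).

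Fasn, the synthase that builds palmitate, had 17.1, 10.6 and 11.4 CPM at 11.8 mM, 10.2, 12.4 and 15.8 CPM at 20 mM and 18.8, 16.5 and 19.6 CPM at 35 mM. The 35 mM libraries were above all 20 mM libraries and overlapped those at 11.8 mM through replicate 1. Its log2 fold change at 35 mM against 11.8 mM was 0.49 ± 0.22 (SE), with an edgeR adjusted p of 0.426.

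Mid1ip1, which helps acetyl-CoA carboxylase to polymerise, had 172, 153 and 150 CPM at 11.8 mM, 138, 158 and 147 CPM at 20 mM and 187, 210.2 and 162 CPM at 35 mM. The 35 mM libraries were above all 20 mM libraries but not above all at 11.8 mM, where the log2 fold change was 0.23 ± 0.13 (SE; edgeR adjusted p = 0.569).

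Stearoyl-CoA desaturases place the double bond that makes oleate, and both Scd1 and Scd2 were tested. Scd2 had 92.2, 74.3 and 63.5 CPM at 11.8 mM, 65.9, 79.6 and 83.2 CPM at 20 mM and 108, 95.5 and 87.2 CPM at 35 mM. Scd1 had 3.73, 2.55 and 2.33 CPM at 11.8 mM, 2.16, 2.53 and 2.54 CPM at 20 mM and 2.68, 3.48 and 4.83 CPM at 35 mM. For both, the 35 mM libraries lay above all 20 mM libraries and overlapped those at 11.8 mM. The log2 fold change at 35 mM against 11.8 mM was 0.34 ± 0.15 (SE) for Scd2, with an edgeR adjusted p of 0.401. For Scd1 it was 0.35 ± 0.42 (SE), with an edgeR adjusted p of 0.864, and it was 0.10 without 35 mM replicate 3 and 0.57 without 11.8 mM replicate 1. The elongases Elovl5 and Elovl6 were at -0.24 ± 0.15 (SE) and -0.03 ± 0.33 (SE), the delta-5 desaturase Fads1 was at 0.02 ± 0.17 (SE) and the acetyl-CoA synthetase Acss2 was at -0.07 ± 0.34 (SE).

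**Figure D4:**
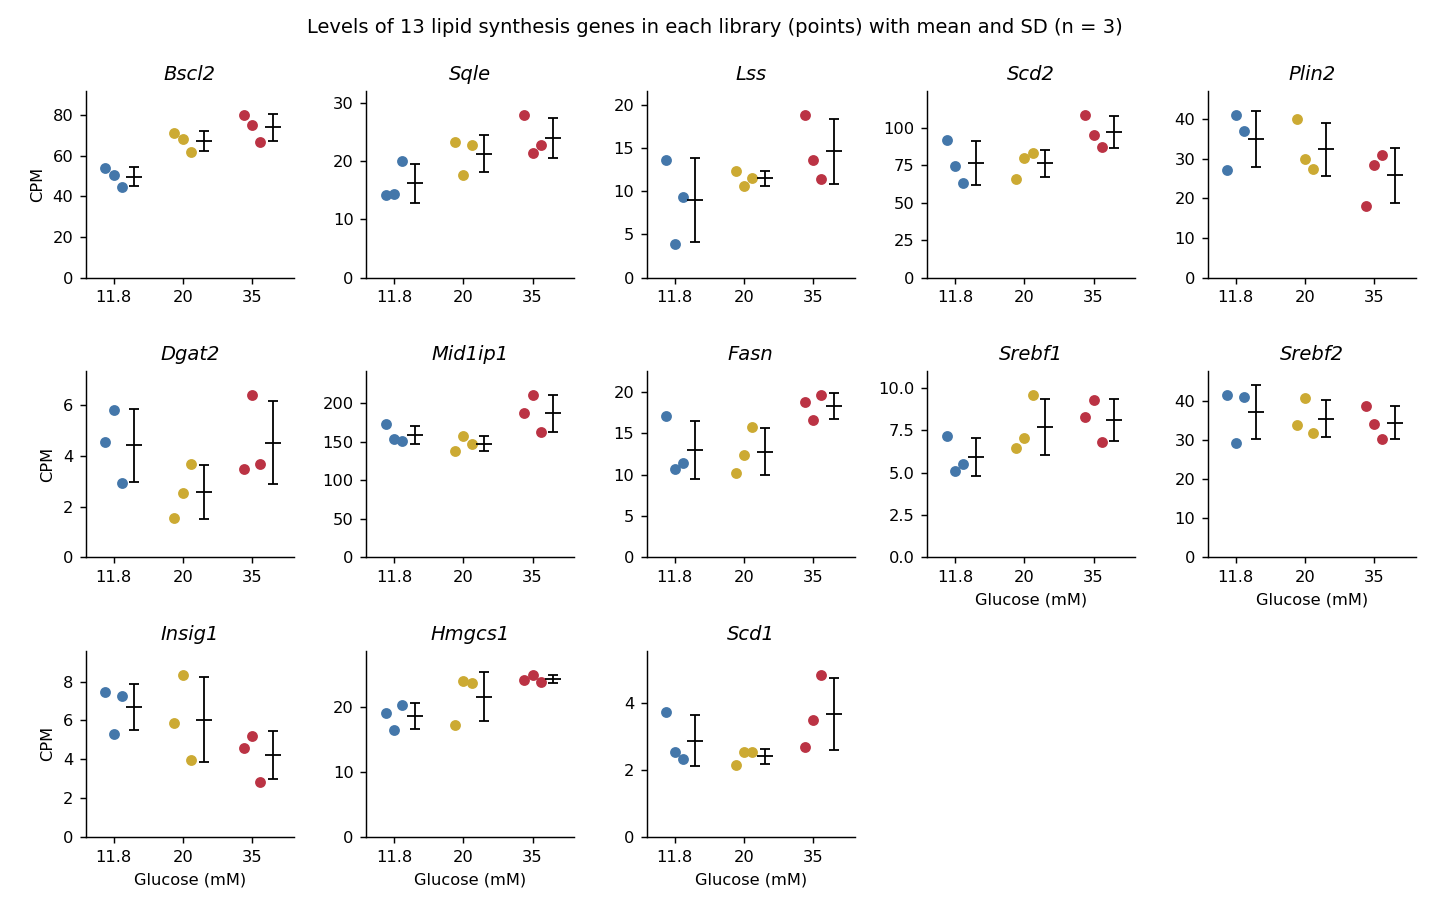
CPM (y axes, starting at 0) of the 13 members given by library, at 11.8, 20 and 35 mM glucose, with each point a library and the black marks the mean with its SD. Bscl2 shows no overlap between 35 mM (66.8 to 80.0 CPM) and 11.8 mM (44.9 to 53.8 CPM). Plin2 has a lower mean at 35 mM, 25.8 CPM, than at 11.8 mM, 35.1 CPM, but its groups overlap and it did not pass the test.

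None of the 5 genes of SREBP control passed in any comparison, and their median log2 fold change at 35 mM against 11.8 mM was -0.10. Srebf1, which encodes SREBP1, the form that drives lipogenic genes, had 7.20, 5.09 and 5.54 CPM at 11.8 mM, 6.47, 7.08 and 9.59 CPM at 20 mM and 8.32, 9.29 and 6.82 CPM at 35 mM. Its groups overlapped, and the log2 fold change at 35 mM was 0.46 ± 0.29 (SE; edgeR adjusted p = 0.637). The last exon of Srebf1 overlaps Rai1 on the opposite strand, whose log2 fold change was -0.03.

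Srebf2, which encodes SREBP2, the form that drives sterol genes, had 41.6, 29.4 and 41.1 CPM at 11.8 mM, 33.9, 40.9 and 31.9 CPM at 20 mM and 38.9, 34.3 and 30.4 CPM at 35 mM. The groups overlapped throughout, and the log2 fold change at 35 mM was -0.11, with a 95% interval of -0.46 to 0.24. Transcript levels do not measure how much of either protein is cleaved.

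Insig1, whose protein retains SCAP and whose gene is itself an SREBP target, had 7.46, 5.32 and 7.28 CPM at 11.8 mM, 5.85, 8.34 and 3.95 CPM at 20 mM and 4.56, 5.23 and 2.84 CPM at 35 mM. All 35 mM libraries were below all 11.8 mM libraries, by a small gap. The log2 fold change was -0.65 ± 0.34 (SE), with an edgeR adjusted p of 0.516. Its relative Insig2 was at -0.10 ± 0.27 (SE) and the escort gene Scap at 0.25 ± 0.29 (SE). The cholesterol carrier Stard4, another SREBP2 target, averaged 4.34 ± 2.06 CPM at 35 mM and 5.69 ± 0.722 CPM at 11.8 mM (SD, n = 3 each), with -0.38 ± 0.35 (SE) on the log2 scale. Known targets of SREBP thus had values on both sides of 0, with Sqle and Hmgcs1 positive and Insig1 and Stard4 negative.

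In triglyceride and lipid droplet formation, 5 of 6 genes were tested, and Bscl2 was the one that rose. Plin2, the coat protein of lipid droplets, had 27.2, 41.0 and 37.0 CPM at 11.8 mM, 40.0, 29.8 and 27.4 CPM at 20 mM and 18.0, 28.5 and 31.0 CPM at 35 mM. The groups overlapped. Its log2 fold change at 35 mM was -0.45 ± 0.20 (SE), with a 95% interval of -0.86 to -0.04 and an edgeR adjusted p of 0.426. It ran from -0.60, without 11.8 mM replicate 1, to -0.24, without 35 mM replicate 1.

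Dgat2, which adds the last acyl chain to triglyceride, had 4.53, 5.79 and 2.91 CPM at 11.8 mM, 1.54, 2.53 and 3.67 CPM at 20 mM and 3.49, 6.39 and 3.69 CPM at 35 mM. The groups overlapped, and the lowest libraries were at 20 mM. Its log2 fold change was 0.01 ± 0.39 (SE) at 35 mM and -0.78 ± 0.42 (SE) at 20 mM, both against 11.8 mM, with edgeR adjusted p-values of 0.997 and 0.673. Dgat1, the other enzyme of this step, was at -0.30 ± 0.25 (SE) at 35 mM, and Pnpla3, a lipase of the droplet surface, at 0.30 ± 0.42 (SE). The droplet genes did not share a direction.

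At 20 mM against 11.8 mM, edgeR's quasi-likelihood test called none of the 35 tested members, against 0.185% of all genes. At an unadjusted p under 0.05 there was 1 member, or 2.86%, against 7.97% of all genes. It was Bscl2, on the higher side, which held 4.45% of all genes. DESeq2 called 0 as well, but gave an adjusted p to 6 of the members. The median log2 fold change was 0.015, and 51.4% of members were on the positive side, against 49.8% of all genes. In TMM-scaled CPM, libraries did not overlap for 2 members, or 5.71%, against 12.8% of all genes. Bscl2 was higher, as were 6.79% of all genes, and Acly lower, as were 6.04%. Acly averaged 237 ± 3.35 CPM at 20 mM and 255 ± 14.6 CPM at 11.8 mM (SD, n = 3 each), a log2 fold change of -0.11 with an edgeR adjusted p of 0.908. The cholesterol synthesis genes had a median of 0.24, with 12 of 14 positive, and Sqle was at 0.40 ± 0.20 (SE; edgeR adjusted p = 0.637). Markers of acinar cells had a median of 0.38 in this comparison, with 16 of 16 tested genes positive and none called. Their part in the members' values was not tested.

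**Figure D5:**
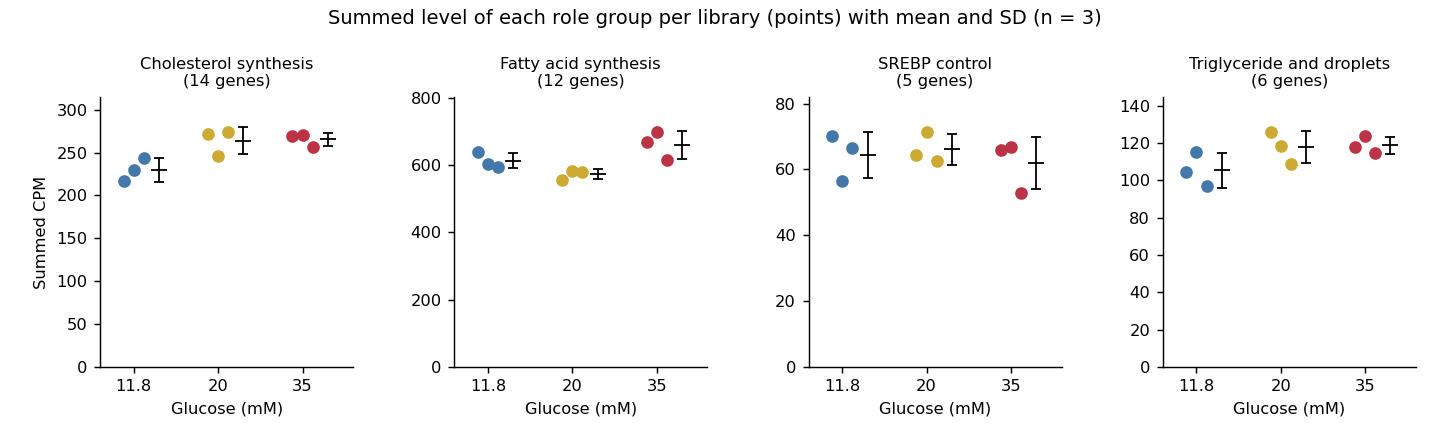
Summed CPM of the role groups (y axes) in each library at 11.8, 20 and 35 mM glucose (x axis), with points for libraries and black marks for the mean with its SD. The cholesterol synthesis sum is 257 to 271 CPM at 35 mM and 216 to 244 CPM at 11.8 mM, whereas the fatty acid synthesis sum is lowest at 20 mM, at 556 to 583 CPM.

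At 35 mM against 20 mM, edgeR called none of the 35 tested members, against 0.0308% of all genes, and DESeq2 called 0. At an unadjusted p under 0.05 there were 3, or 8.57%, against 5.29% of all genes: Mid1ip1, Scd2 and Fasn, all higher at 35 mM, as were 2.73% of all genes. Mid1ip1 was at 0.34 ± 0.13 (SE), Scd2 at 0.35 ± 0.15 (SE) and Fasn at 0.52 ± 0.23 (SE) on the log2 scale, with edgeR adjusted p-values of 0.905, 0.905 and 0.914. Libraries did not overlap for 5 members, or 14.3%, all higher at 35 mM, against 11.9% of all genes in either direction and 6.15% in that direction. The 5 were Acly, Fasn, Scd1, Scd2 and Mid1ip1, all of the fatty acid group. In that group 9 of 10 genes were on the positive side, with a median of 0.26, while the cholesterol synthesis genes had a median of 0.06, with 8 of 14 positive. The 3 comparisons share libraries with one another, so these values are not independent of those above.

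The slope over all 3 concentrations, per doubling of glucose, passed the edgeR test for none of the members, against 0.688% of all genes. At an unadjusted p under 0.05 there were 7 members, or 20%, against 10% of all genes, and DESeq2 called 1, Bscl2. The slope of Bscl2 was 0.36 ± 0.09 (SE) on the log2 scale, with an edgeR adjusted p of 0.0609. The median slope of the members was 0.10, and 23 of 35 were positive.

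How much these data could show differed between members. At 35 mM against 11.8 mM the 95% interval of the log2 fold change had a median half-width of 0.58 over the members, and it lay wholly between -1 and 1, that is within a doubling or halving, for 26 of 35. Counts were simulated with changed genes drawn from all genes between the lowest and the highest mean level of a tested member. A 1.5-fold change was called in 16.6% of these, a 2-fold change in 60.1% and a 4-fold change in 95.2%. The members' median level was 9.17 CPM, against 11.9 CPM over all genes, so their own shares may differ. Most simulated 1.5-fold changes were thus missed at this depth and number of libraries. A member that did not pass is not thereby shown to be unaltered.

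Of related pathway genes outside the 38, none passed the test in any of the comparisons. Other genes of fatty acid synthesis and elongation, 15 of 21 tested, had a median log2 fold change of 0.20 at 35 mM against 11.8 mM. The smallest p-values there were those of Tecr, the last reductase of fatty acid elongation, at 0.42 ± 0.13 (SE; edgeR adjusted p = 0.162), and of Hsd17b12, the ketoreductase of the same cycle, at 0.34 ± 0.14 (SE; edgeR adjusted p = 0.36). Other genes of cholesterol synthesis and uptake, 14 of 15 tested, had a median of 0.02, with the lysosomal sterol carrier Npc2 at -0.35 ± 0.15 (SE) and the cholesterol acyltransferase Soat1 at -0.57 ± 0.26 (SE). Other triglyceride and droplet genes, 11 of 22 tested, had a median of -0.04, and Hilpda, which inhibits droplet lipolysis, was at -0.60 ± 0.28 (SE). Genes of fatty acid oxidation, 10 of 12 tested, had a median of -0.09, with 7 negative and a smallest edgeR adjusted p of 0.566. Genes of LXR signalling and sterol efflux, 7 of 9 tested, had a median of -0.19, with 5 negative. The smallest edgeR adjusted p in that list was 0.116, below that of Tecr.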

How the data were processed

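CEL-Seq2, which reads transcripts at their 3' ends, was run on purified bulk RNA, per the labels' protocols. The deposited values are raw read counts per gene and sub-library, and the authors used GRCm38.p4 with the tools cutadapt, TopHat, HTSeq and DESeq2, per the submitters' processing notes. For versions, annotation and strand of counting, nothing is stated in the labels. Values were not collapsed to unique molecules, since the highest, 605402, exceeds the 4096 possible identifiers, so amplified copies of a molecule are counted as separate reads. The deposited sample sheet ties 27 sub-libraries to the 9 libraries, and their counts were summed. A further 30 per-sample columns match no label and were not used. Of 22145 features, 92 spike-ins and 5 summary lines (19.6% to 29.9% of counted reads) entered neither library sizes nor tests. Symbols and positions came from GENCODE M21.

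Tests used edgeR 4.0.16 under R 4.3.3: TMM normalization, filterByExpr by group, group means fitted to 9 libraries together (residual degrees of freedom, 6), robust quasi-likelihood tests and Benjamini-Hochberg adjustment over 9739 genes. The slope was fitted on log2 glucose. With 3 libraries a group, exact permutation reaches no p under 0.1. CPM of libraries used TMM-scaled library sizes, and CPM of sub-libraries used unscaled gene counts. Values by library were given for 13 members: those called in any comparison, those with the smallest p in each (5, 3 and 3 members for 35 against 11.8, 20 against 11.8 and 35 against 20 mM), and Srebf1, Srebf2, Insig1, Fasn, Hmgcs1, Scd1 and Plin2; a few others are named by role with values only. The members and lists were chosen with earlier results of these data known. The method was tested on 5 simulated data sets of 9739 genes, where 52 of 46662 unchanged genes were called at 35 against 11.8 mM. Alternatives were DESeq2 1.42.0, DESeq2 size factors, other filters, removal of the 20 most abundant genes, a replicate block, each library left out, 2 sub-libraries left out and fits of only 2 concentrations.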

Additional observations from a re-analysis of the deposited data

How the results depend on the processing

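Bscl2 at 35 against 11.8 mM kept its call in 10 of 17 alternatives, with a log2 fold change of 0.50 to 0.64 and an adjusted p of 0.0146 to 0.251. No member was called there without the 2 sub-libraries with a low share of Ins1 or Ins2, or in a fit of only 2 concentrations (0 in each). With each library left out, 0 to 2 were called. For 35 mM against 11.8 mM, 84 genes were called in all, against 148 with no filter and 41 to 138 with each library left out. For 20 mM against 11.8 mM the count was 18, against 57 with DESeq2, 51 with no filter, 11 with only 2 concentrations and 7 to 35 with each library left out. For 35 mM against 20 mM it was 3, and 1 to 7 with each library left out. For the slope it was 67, against 111 with no filter and 27 to 103 with each library left out. DESeq2 and a filter of 10 CPM each called 1 member on the slope, and leaving out libraries 0 to 1. The median slope of 0.10 became 0.016 with DESeq2, which gave an adjusted p to 30 members, and 0.067 to 0.16 with each library left out. Leaving out 1 library moved the members' median at 35 against 11.8 mM to 0.083 to 0.23, and moved Lss (0.35 to 1.18), Scd2 (0.22 to 0.49), Plin2 (-0.60 to -0.24), Mid1ip1 (0.14 to 0.33), Srebf2 (-0.26 to -0.023) and Scd1 (0.10 to 0.57) by over 1.5 times there. Without the 2 sub-libraries Dgat2 was at -0.068 at 35 against 11.8 mM and -0.046 on the slope, and Insig1 at 0.0032 at 20 against 11.8 mM. With each library left out, Dgat2 ran from -0.31 to 0.27 at 35 against 11.8 mM and -0.27 to 0.25 on the slope. At 20 against 11.8 mM, Scd2 ran from -0.13 to 0.14, Fasn from -0.20 to 0.22, Srebf2 from -0.21 to 0.021, Lss from -0.0042 to 0.83, Plin2 from -0.30 to 0.013 and Insig1 from -0.44 to 0.11. At 35 against 20 mM, Srebf1 ran from -0.029 to 0.26 and Srebf2 from -0.14 to 0.072. The causes were not tested.

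Replicate numbers did not pair the libraries: the 9 same-numbered pairs correlated at -0.146 to 0.0459, other pairs at -0.159 to 0.163, and 2 of 9 libraries correlated best with their own number. With the replicate number as a block, the calls numbered 74, 13 and 3 genes at 35 against 11.8, 20 against 11.8 and 35 against 20 mM and 56 on the slope. With the block the log2 fold change of Bscl2 had an adjusted p of 0.0466 at 35 against 11.8 mM, 1, 0, 0 and 0 members were called, the members' medians were 0.18, 0.02, 0.10 and 0.11, and Scd2 was at 0.0078 at 20 against 11.8 mM. Depth limits the members most where levels are low: their median level was 9.17 CPM, against 11.9 CPM over all genes, and their median SE was 0.286, against 0.248.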
